A study of Homo sapiens with 15 samples.

Results

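The genes described here are 32 genes of cholesterol and fatty acid synthesis and of the circuit that controls it, chosen as a named list and found by gene symbol among the 24880 loci of the table. Every one of the 32 was present once, and all 32 passed the filter on low values, as did 12467 loci in all. RNA came from HK-2, an immortalised human proximal tubule cell line, labelled wild type and grown in DMEM/F12 with serum, and polyadenylated RNA was sequenced. The 15 libraries form 5 groups of 3. Mock is PBS at 0 h. TGF-beta (TGFb, 2 ug/ml) was given with DMSO, the solvent control, in 1 group for 1 h and in another for 12 h, and those 2 time points were repeated with FT895, labelled as selective for the deacetylase HDAC11, in place of DMSO alone. No source used here states how much FT895 was added, and FT895 was never given by itself. Against mock, TGFb cannot be told apart from DMSO or from the hours elapsed. Whether replicates are separate cultures is not stated in the labels, so p-values measure the spread between these libraries, which may be technical.

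Cholesterol is built from acetyl units through mevalonate and isoprenoid pyrophosphates to squalene, which is closed into lanosterol and trimmed to cholesterol. Most genes of this route are driven by SREBP2, the product of SREBF2, while SREBP1 from SREBF1 acts more on fatty acid genes. SREBPs wait in the endoplasmic reticulum bound to SCAP, held there by INSIG proteins when sterols are plentiful, and move to the Golgi for cleavage when sterols fall. Excess sterol acts through the nuclear receptor LXR, which induces the exporter ABCA1 and the ubiquitin ligase MYLIP, a degrader of lipoprotein receptors. SREBPs bind promoters weakly and are known to act together with NF-Y, which binds CCAAT boxes, and with SP1, which binds GC boxes.

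The stretches upstream of 9 members are shown, 5 called higher and 4 called lower than mock at 12 h. They are all members called at 12 h with a RefSeq entry (GRCh38.p14) and at least 100 bases there that lie outside every exon of GENCODE v29; PMVK, SCAP, NPC1, NPC2 and ACAT2 are called members not shown. Each stretch was cut to leave out exons, and capitals mark CCAAT boxes, which read ATTGG when on the opposite strand. The ACLY stretch lies inside the gene as GENCODE v29 places it (41866908 to 41930542), upstream of an internal RefSeq start.
STARD4 (chr5:111512591-111512740, minus strand): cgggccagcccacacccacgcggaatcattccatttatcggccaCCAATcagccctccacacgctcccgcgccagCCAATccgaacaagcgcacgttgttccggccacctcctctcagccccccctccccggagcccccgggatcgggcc
ACLY (chr17:41919023-41919172, minus strand): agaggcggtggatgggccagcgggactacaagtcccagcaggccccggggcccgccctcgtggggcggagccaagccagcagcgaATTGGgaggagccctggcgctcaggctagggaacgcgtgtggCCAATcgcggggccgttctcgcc
SCD (chr10:100346983-100347123, plus strand): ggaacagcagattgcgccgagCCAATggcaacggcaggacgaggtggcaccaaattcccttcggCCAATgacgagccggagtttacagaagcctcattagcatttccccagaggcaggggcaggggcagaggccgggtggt
INSIG1 (chr7:155297628-155297775, plus strand): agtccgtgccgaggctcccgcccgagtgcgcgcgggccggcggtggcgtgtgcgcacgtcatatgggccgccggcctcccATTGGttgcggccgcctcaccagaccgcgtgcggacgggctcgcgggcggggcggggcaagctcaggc
MYLIP (chr6:16128936-16129085, plus strand): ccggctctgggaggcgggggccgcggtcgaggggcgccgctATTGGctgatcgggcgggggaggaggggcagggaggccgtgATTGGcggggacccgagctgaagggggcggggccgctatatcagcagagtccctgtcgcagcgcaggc
HMGCS1 (chr5:43313513-43313662, minus strand): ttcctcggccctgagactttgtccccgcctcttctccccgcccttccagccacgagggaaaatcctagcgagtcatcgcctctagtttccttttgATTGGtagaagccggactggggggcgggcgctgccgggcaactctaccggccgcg
LPIN1 (chr2:11677394-11677543, plus strand): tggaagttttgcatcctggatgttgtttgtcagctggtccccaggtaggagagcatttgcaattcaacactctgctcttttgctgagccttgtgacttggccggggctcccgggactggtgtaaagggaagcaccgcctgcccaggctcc
LSS (chr21:46228825-46228974, minus strand): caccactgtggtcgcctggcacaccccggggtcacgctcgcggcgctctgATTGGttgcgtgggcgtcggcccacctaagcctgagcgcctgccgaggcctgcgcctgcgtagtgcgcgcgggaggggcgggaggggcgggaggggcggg
NSDHL (chrX:152830817-152830966, plus strand): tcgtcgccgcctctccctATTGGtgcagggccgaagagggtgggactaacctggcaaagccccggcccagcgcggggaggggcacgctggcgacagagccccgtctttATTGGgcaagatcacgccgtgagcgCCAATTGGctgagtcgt
LPIN1, the deepest fall at 12 h, has no CCAAT box in its stretch, and NSDHL holds a pair on opposite strands that share bases.

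The 250 bases before each RefSeq start were searched on both strands in the 28 members with an entry. ACAT2, FDFT1, SQLE and FASN had no entry. A gene was counted if the bases before any of its starts held a match, with 35116 starts over 27305 genes. Genes with more starts could thus be counted more easily, which was not adjusted for. CCAAT was found in 20 of the 28 members (71.4%), against 42.0% of 9214 tested genes and 37.0% of all 27305 genes with an entry. The GC box GGGCGG was found in 27 of 28 members, against 76.6% of tested genes. The sterol regulatory element, searched as TCACNCCAC, was found in SREBF2 alone among members and in 1.23% of tested genes, and the E-box CACGTG in 4 members (14.3%) against 11.7%. An E-box can share its opening bases with the end of a sterol element. Of the members called higher than mock at 12 h, 6 of 6 held a CCAAT box, of those called lower with an entry 3 of 7, and of those not called 11 of 15. For the GC box the same counts were 6 of 6, 6 of 7 and 15 of 15, and for the E-box 1 of 6, 1 of 7 and 2 of 15. All genes called in each direction were not counted, and a link of CCAAT to direction was not tested. A match is a description of these letters and not evidence of binding.

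The labelled cell type was checked against its markers. Of 17 markers of proximal tubule and renal epithelium, 9 passed the filter on low values, and 8 stayed under 1 FPKM in all libraries: AQP1, CUBN, LRP2, SLC34A1, SLC5A2, ANPEP, HNF4A and PAX2, with LRP2 listed at 0 throughout. Markers of fibroblasts and pericytes (2 of 7), leukocytes (1 of 5), endothelium (0 of 5) and distal nephron and podocytes (0 of 6) rarely passed. The summed level of the leukocyte markers ran from 41.2 to 44.2 FPKM in mock and from 33.2 to 38.1 with TGFb at 12 h, and that of the fibroblast markers from 20.3 to 21.2 and from 13.3 to 20.0. Their part in the results was not tested. The markers that passed, and on which these sums mainly rest, were CD68 for leukocytes and LUM and RGS5 for fibroblasts and pericytes. The others in these lists, PTPRC, CD3E, CD14, LYZ, PDGFRA, PDGFRB, DCN, COL1A2 and ACTA2, stayed under 1 FPKM in all libraries.

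Replicate 1 of TGFb 1 h stood apart before any result. Its residual SD over all tested genes was 0.211 on the log2 scale, against 0.107 to 0.156 in the other 14 libraries. Its deviation from the other 2 libraries of its group fell with transcript length: the Spearman rho with exon length was -0.436 across 11536 genes and -0.737 across the 32 members, values that describe genes sharing 1 library. FASN (exon length 9364 bases) was at 31.0 FPKM there and at 53.3 and 47.0 in replicates 2 and 3, while EBP (2409 bases) was at 66.7 against 48.3 and 51.6. The main results that rest on TGFb 1 h are therefore also given without it.

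In mock cells all 32 transcripts were detected. FPKM is scaled by transcript length, so levels can be set beside each other. SCD, the desaturase that makes monounsaturated fatty acids, was highest at 190 ± 0.922 FPKM (mean ± SD, n = 3 here and throughout), above 97.9% of tested genes. Next came FDPS, which makes farnesyl pyrophosphate (151 ± 1.33), and ACLY, which cleaves citrate to cytosolic acetyl-CoA (116 ± 2.75). NPC2, the soluble cholesterol carrier of the lysosome, was at 104 ± 3.57 FPKM and FDFT1, squalene synthase, at 101 ± 3.54. These 2 neighbours in the order overlapped in range. SREBF2 (65.5 ± 1.44) was higher than SREBF1 (17.6 ± 0.809), and INSIG1 (39.7 ± 1.89) higher than INSIG2 (9.78 ± 0.478), without overlap between libraries in either pair. The lowest members were TM7SF2, a sterol C14 reductase (1.92 ± 0.192), and MYLIP (1.45 ± 0.27), whose log2 changes the added 1 FPKM compresses. Together the 32 genes held 0.377 to 0.383% of summed FPKM in mock, 0.336 to 0.356% in the 6 libraries of 1 h, 0.432 to 0.439% with TGFb at 12 h and 0.405 to 0.411% with TGFb and FT895 at 12 h. Such a sum is dominated by the highest members. From mock to TGFb at 12 h the means of SCD, ACLY and NPC2 went from 190, 116 and 104 FPKM to 283, 200 and 153. The median log2 change of the 32 members was -0.03.

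**Figure D1:**
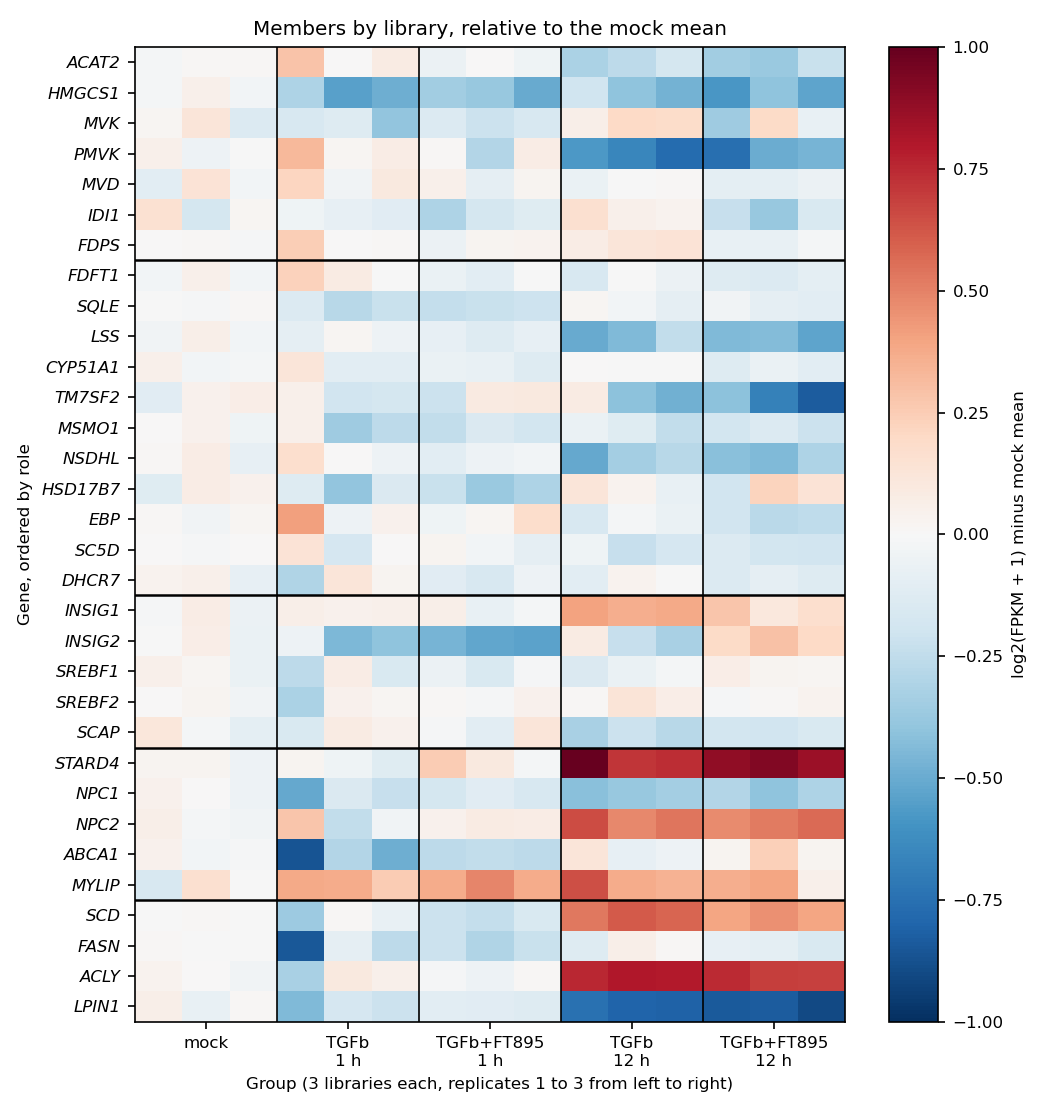
Each row is a member, ordered by role, and each column a library; colour gives log2(FPKM + 1) minus the mean of the 3 mock libraries, limited to 1 in either direction. The 12 h columns are red for STARD4, NPC2, SCD and ACLY and blue for LPIN1, PMVK and LSS, and replicate 1 of TGFb 1 h differs from its neighbours in FASN, ABCA1 and EBP.

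After 12 h of TGFb members of every role except the mevalonate and sterol arms were called in both directions against mock, and in those arms only falls were called. STARD4, ACLY, SCD, NPC2, MYLIP and INSIG1 rose. LPIN1, PMVK, LSS, NSDHL, NPC1, HMGCS1, SCAP and ACAT2 fell. That is 6 up and 8 down of 32, by limma on log2(FPKM + 1) with a Benjamini-Hochberg adjusted p under 0.05 over all 12467 genes. Of all genes tested 38.6% were called in this comparison, 14.2% higher and 24.5% lower, so the 43.8% of members called is near the background. The groups did not overlap in 7 members that were higher and in 10 that were lower, where 19.8% and 35.1% of all genes lay apart in those directions. The median log2 change was -0.03 over members and -0.08 over all genes. A lower level in a bulk sample can come from less RNA per cell or from fewer cells that make it, which cannot be told apart.

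STARD4, a cytosolic carrier that moves cholesterol between membranes (ENSG00000164211, chromosome 5, 111496033 to 111512590, minus strand on GRCh38, a protein-coding gene like all members), was at 12.3, 12.3 and 11.6 FPKM in mock. At 12 h it was at 25.1, 20.4 and 20.8 FPKM. The groups did not overlap, and the mean was 83.1% higher (log2 change 0.82, SE 0.082, limma adjusted p 1.92e-06). NPC2 went from 108, 102 and 101 FPKM to 163, 145 and 151, with every 12 h library above every mock library (0.56, adjusted p 0.000337). Its partner NPC1, the membrane protein that takes cholesterol from NPC2 out of the lysosome, moved the other way. It was at 35.9, 35.0 and 33.7 FPKM in mock and at 25.9, 26.5 and 27.4 at 12 h, again without overlap (-0.38, adjusted p 0.00116). Among the LXR targets MYLIP rose from a mean of 1.45 to 2.35 FPKM (0.45, adjusted p 0.00558), while ABCA1 stood at 28.7 ± 0.82 in mock and 28.6 ± 2.35 at 12 h (-0.01, adjusted p 0.973).

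Fatty acid genes were split. ACLY (ENSG00000131473, chromosome 17, 41866908 to 41930542, minus strand) was at 119, 116 and 113 FPKM in mock and at 196, 203 and 202 at 12 h. The groups lay far apart, with a mean 72.2% higher (log2 change 0.78, limma adjusted p 3.67e-06). SCD (ENSG00000099194, chromosome 10, 100347124 to 100364834, plus strand) was at 189, 191 and 189 FPKM in mock and at 274, 291 and 284 at 12 h (0.58, adjusted p 2.88e-05). FASN, the synthase that builds palmitate between those enzymes, was at 56.7 ± 0.526 FPKM in mock and 56.0 ± 3.76 at 12 h (-0.02, adjusted p 0.927). LPIN1, a phosphatidate phosphatase of triglyceride synthesis that also acts as a coregulator in the nucleus (ENSG00000134324, chromosome 2, 11677595 to 11827409, plus strand), showed the deepest fall of the 32. It went from 10.8, 9.74 and 10.4 FPKM to 5.75, 5.48 and 5.45, so that the mean fell by 46.1% without overlap (-0.79, adjusted p 5.55e-07).

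**Figure D2:**
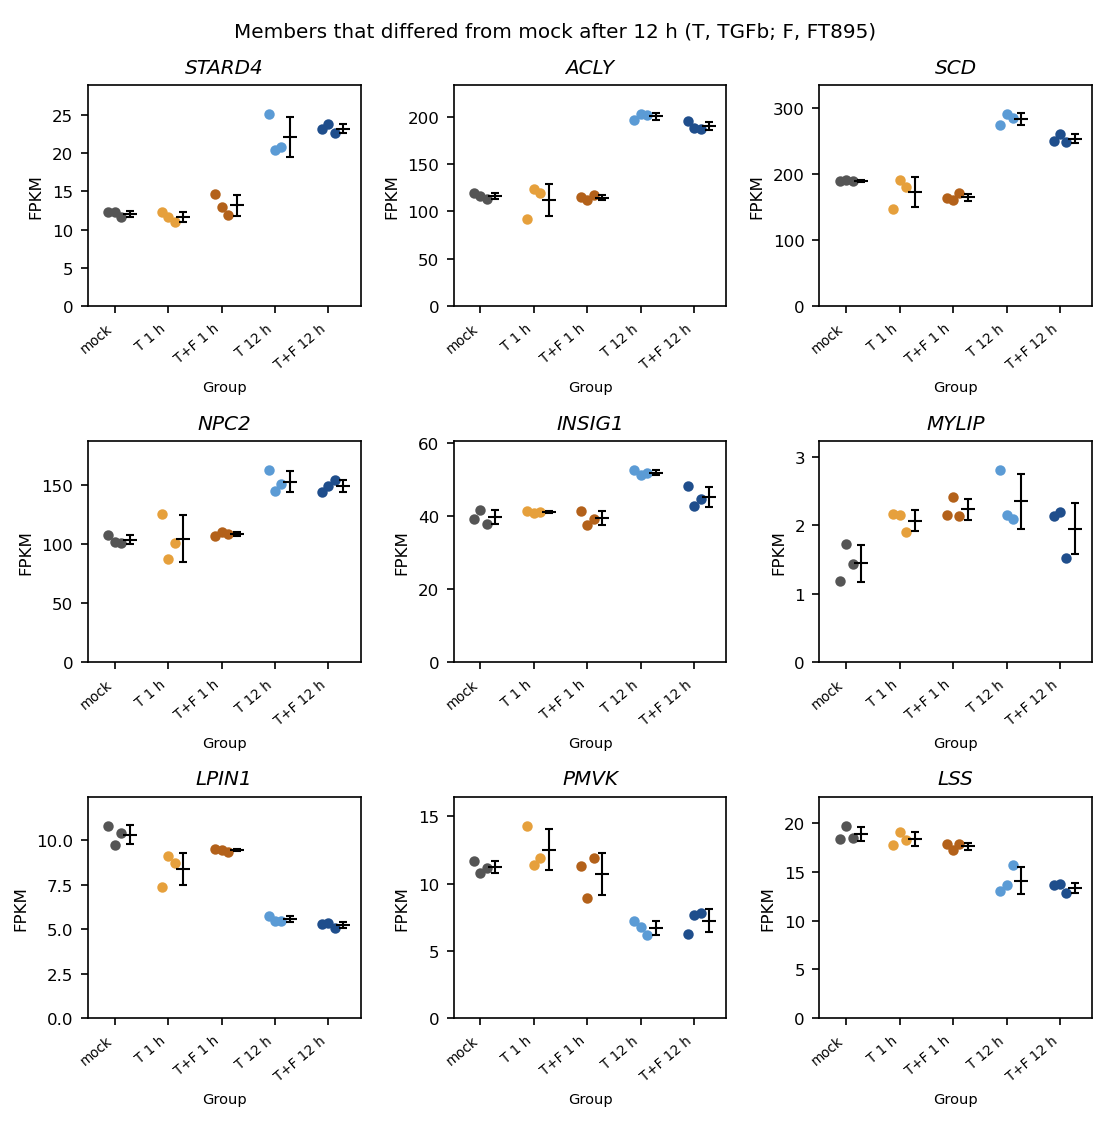
Points are FPKM of single libraries in the 5 groups, with mean and SD (n = 3) as bars beside them; each axis starts at 0. STARD4, ACLY, SCD and NPC2 are high in the 12 h groups, and LPIN1, PMVK and LSS are low there.

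In the mevalonate arm 0 members rose, 3 fell and 4 were not called at 12 h. PMVK, phosphomevalonate kinase (ENSG00000163344, chromosome 1, 154924734 to 154936991, minus strand), was at 11.7, 10.8 and 11.2 FPKM in mock and at 7.22, 6.76 and 6.16 at 12 h. It was lower in every 12 h library, and the mean fell by 40% (log2 change -0.66, limma adjusted p 0.000196). HMGCS1, which makes HMG-CoA and so opens the route to mevalonate, was at 57.3, 60.2 and 57.0 FPKM in mock and at 50.4, 43.7 and 41.7 at 12 h (-0.36, adjusted p 0.00241). ACAT2, the cytosolic thiolase that joins 2 acetyl-CoA, fell by 0.25 (adjusted p 0.00865). Mevalonate kinase MVK, the decarboxylase MVD, the isomerase IDI1 and FDPS had log2 changes between -0.02 and 0.15 and were not called; the 12 h libraries of FDPS nevertheless lay above those of mock without overlap (159, 164 and 166 against 151, 152 and 150 FPKM; adjusted p 0.178).

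In the sterol arm, from squalene to cholesterol, 0 of 11 members rose and 2 fell, and 10 of 11 log2 changes were below 0, as were 7808 of all 12467 genes; the median was -0.08 in the arm and over all genes. LSS, the cyclase that forms lanosterol (ENSG00000160285, chromosome 21, 46188141 to 46228824, minus strand), was at 18.4, 19.7 and 18.5 FPKM in mock and at 13, 13.6 and 15.7 at 12 h (log2 change -0.40, limma adjusted p 0.000194). NSDHL, which removes the C4 methyl groups together with MSMO1 and HSD17B7, was at 27.0, 28.3 and 25.2 FPKM in mock and at 18.5, 21.0 and 21.9 at 12 h (-0.38, adjusted p 0.00103). Neither pair of groups overlapped. The rest, not called, ran from -0.27 for TM7SF2 to 0.03 for HSD17B7: squalene synthase FDFT1, squalene epoxidase SQLE, the demethylase CYP51A1, MSMO1, the isomerase EBP, the desaturase SC5D and the last reductase DHCR7 lay between. CYP51A1 was at 44.4 ± 1.39 and 44.3 ± 0.134 FPKM, the closest pair of means among them. The 12 h libraries of MSMO1 nevertheless lay below those of mock without overlap (63.4, 61.2 and 55.9 against 66.7, 68.6 and 64.6 FPKM, limma adjusted p 0.185). So did those of SC5D (12.3, 10.7 and 11.2 against 12.8, 12.6 and 12.8 FPKM, limma adjusted p 0.118).

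Of the genes that control SREBP, INSIG1 was called higher and SCAP lower. INSIG1 (ENSG00000186480, chromosome 7, 155297776 to 155310235, plus strand), itself a target of SREBP, was at 39.3, 41.8 and 38 FPKM in mock and at 52.7, 51.3 and 51.8 at 12 h. The 12 h libraries were close to each other and all above mock (log2 change 0.38, limma adjusted p 7.51e-05). SCAP, the escort of SREBP, was at 17.2, 15.6 and 14.7 FPKM in mock and at 12.4, 13.5 and 12.9 at 12 h (-0.27, adjusted p 0.0129); its call was lost with median-of-ratios scaling (adjusted p 0.0766), with quantile normalization (0.053) and without mock replicate 1 (0.0701). SREBF1 (-0.08), SREBF2 (0.07) and INSIG2 (-0.16) were not called. Scaling also shifts the balance of the whole list: with median-of-ratios scaling 7 members were called up and 6 down, and with quantile normalization 7 and 7. Over all genes the share of calls that were higher moved with them, from 36.7% to 53.1% and 46.9%. Without TGFb 1 h replicate 1, which enters this fit through the shared spread, FDPS (adjusted p 0.0217), MSMO1 (0.0265) and SC5D (0.0477) were called as well. The call of ACAT2 was lost with median-of-ratios scaling (adjusted p 0.0859).

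**Figure D3:**
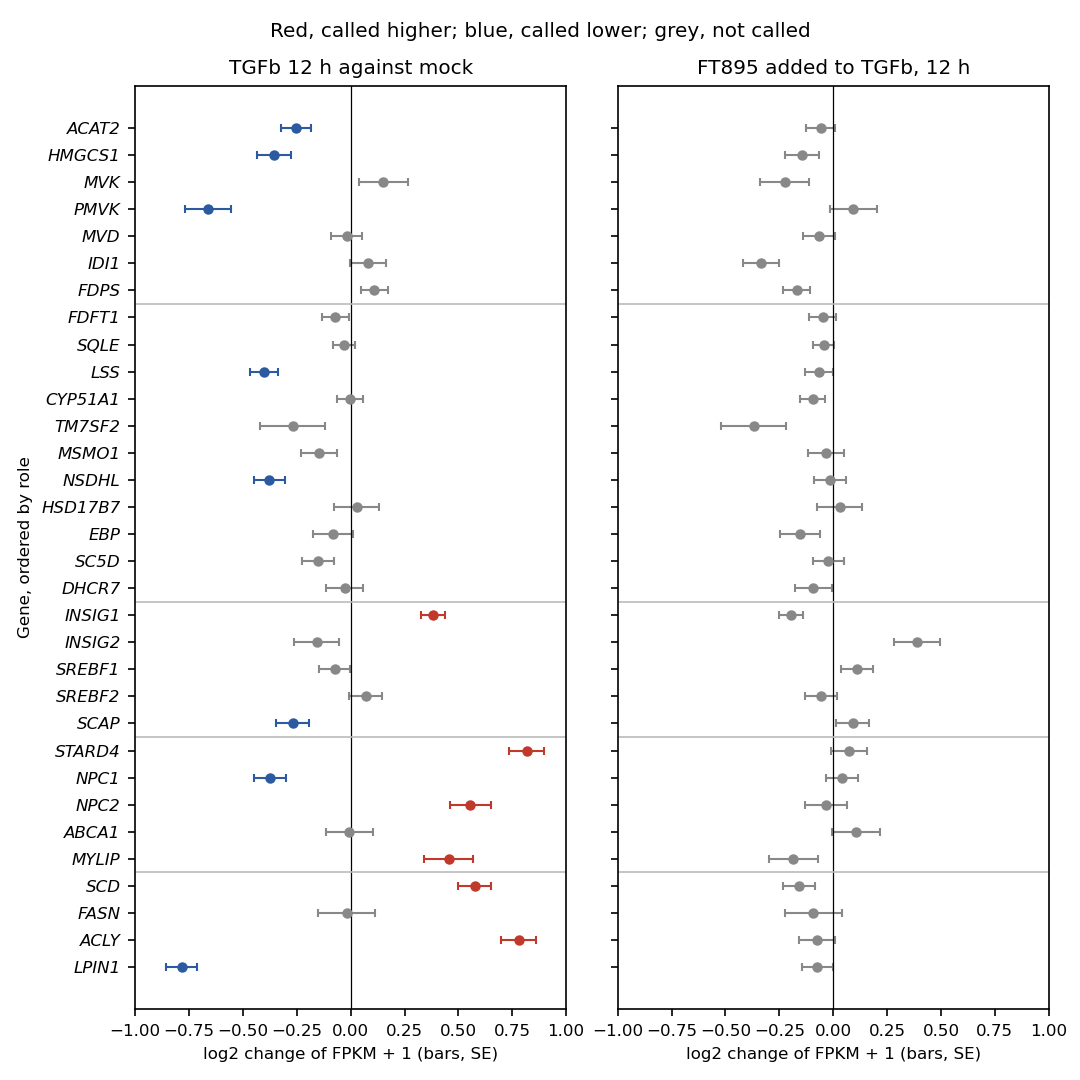
Points are log2 changes of FPKM + 1 with SE for the 32 members, by role, for TGFb 12 h against mock on the left and FT895 added to TGFb at 12 h on the right. On the left 6 members are called higher and 8 lower; on the right none of the 32 is called, and 24 points lie below 0.

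Within 1 h of TGFb only falls were called. ABCA1, HMGCS1, NPC1, LPIN1 and SQLE were lower than in mock, which is 5 of 32 down and 0 up, against 5.28% of all genes called lower and 3.7% called higher (8.98% in either direction). The groups lay apart in 1 member that was higher, MYLIP, and in 7 that were lower, against 11.5% and 18.4% of all genes. The median log2 change was -0.06 over members and -0.03 over all genes, and with quantile normalization 1 member was called up and 6 down. At this time 0 of 5 genes that control SREBP was called in either direction (1 of 5, INSIG2, had an unadjusted p under 0.05).

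ABCA1 (ENSG00000165029, chromosome 9, 104781002 to 104928237, minus strand) was at 29.6, 28.1 and 28.4 FPKM in mock and at 15.3, 23.2 and 20.2 after 1 h. All 1 h libraries lay below mock, and the lowest is the library that stands apart (log2 change -0.55, limma adjusted p 0.00761; -0.39, adjusted p 0.00736 without it). HMGCS1 was at 57.3, 60.2 and 57.0 FPKM in mock and at 46.7, 39.7 and 41.1 after 1 h, so here replicate 1 was the highest of its group (-0.45, adjusted p 0.00326; -0.51, adjusted p 0.000793 without it). SQLE, a rate-limiting step after squalene, was at 64.1, 63.7 and 64.9 FPKM in mock and at 58.2, 52.7 and 54.8 after 1 h (-0.21, adjusted p 0.0169; -0.25, adjusted p 0.00188 without it). The 1 h groups of HMGCS1 and SQLE did not overlap with mock.

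NPC1 was at 24.1, 31.4 and 29.5 FPKM after 1 h (log2 change -0.30, limma adjusted p 0.0274; -0.19, adjusted p 0.0307 without replicate 1). LPIN1 was at 7.34, 9.08 and 8.73 FPKM (-0.27, adjusted p 0.0288), and its call was lost without that replicate (-0.19, adjusted p 0.0522). Both lay below mock in every library. MSMO1 (-0.31, adjusted p 0.0036) and INSIG2 (-0.42, adjusted p 0.0145) were not called with all libraries but were called lower without TGFb 1 h replicate 1, which makes 6 members down and 0 up. FASN had a log2 change of -0.40 (adjusted p 0.0735), and of -0.18 (0.0876) without replicate 1, over 1.5 times smaller. With a mock library left out some calls were lost at about the same log2 change. Without mock replicate 1 or without mock replicate 3 this was so for SQLE (-0.22, adjusted p 0.0603, and -0.21, 0.0688), NPC1 (-0.28, 0.102, and -0.32, 0.0627) and LPIN1 (-0.25, 0.111, and -0.27, 0.0988). Without mock replicate 2 it was so for NPC1 (-0.29, adjusted p 0.0751). The call of NPC1 was also lost with no filter on low values (-0.30, adjusted p 0.065).

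**Figure D4:**
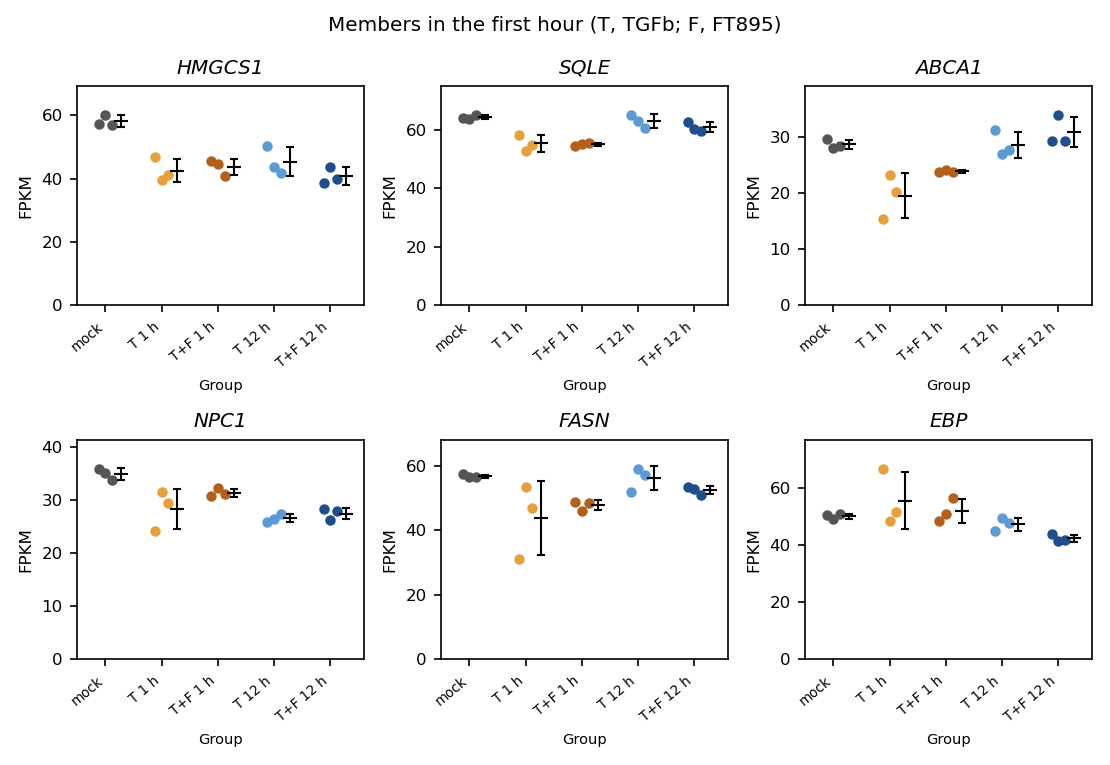
Points are FPKM of single libraries in the 5 groups, with mean and SD (n = 3) as bars beside them; each axis starts at 0. HMGCS1, SQLE and ABCA1 are lower at 1 h than in mock, and FASN and EBP show how far replicate 1 of TGFb 1 h lies from its group.

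The change from 1 h to 12 h can be read in 2 sets of libraries that share none, with the vehicle and with FT895. In each set 9 members rose and 7 fell, which is 50% of members against 41% of all genes called with the vehicle (16.8% higher, 24.2% lower) and 38.2% with FT895 (13.5% higher, 24.8% lower). Groups that did not overlap made up 19.7% (higher) and 26.5% (lower) of all genes with the vehicle, and 19.2% and 36.6% with FT895. Of the 16 members called in each set 12 were called in both, all in the same direction, which is 75% of each list, against 70.1% and 75.2% for all genes. STARD4, ACLY, SCD, NPC2, ABCA1, INSIG1 and SQLE were the 7 that rose in both, and LPIN1, PMVK, LSS, NSDHL and ACAT2 the 5 that fell in both. With median-of-ratios scaling or with quantile normalization the vehicle set had 12 up and 6 down, while the share of all calls that were higher went from 41.1% to 53.0% and 47.2%. With median-of-ratios scaling the FT895 set had 9 up and 5 down, and ACAT2 was not called in it (-0.18, adjusted p 0.0642).

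STARD4, ACLY and SCD rose in both sets by over 0.5. With the vehicle STARD4 went from 12.3, 11.7 and 11 FPKM at 1 h to the 12 h values above, a rise of 0.86. With FT895 it went from 14.6, 13 and 11.9 FPKM to 23.1, 23.8 and 22.6, a rise of 0.78. Neither pair of groups overlapped. ACLY was at 92.3, 124 and 120 FPKM after 1 h with the vehicle and rose by 0.84, and with FT895 it rose by 0.72, from 115, 112 and 117 FPKM to 195, 188 and 187. SCD was at 147, 191 and 180 FPKM after 1 h with the vehicle and rose by 0.72, and with FT895 it rose by 0.62, from 163, 161 and 171 FPKM to 250, 261 and 249. Each 12 h library of these genes lay above each 1 h library of its set, with limma adjusted p values up to 1.66e-05. NPC2 was at 126, 87.4 and 101 FPKM after 1 h with the vehicle, the widest spread of its 5 groups, and rose by 0.55.

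Falls were led by PMVK, LPIN1 and NSDHL with the vehicle. PMVK was at 14.3, 11.4 and 11.9 FPKM after 1 h with the vehicle and fell by 0.81, and with FT895 it fell by 0.50, from 11.3, 8.96 and 11.9 FPKM to 6.26, 7.65 and 7.85. LPIN1 fell by 0.51 with the vehicle and by 0.74 with FT895, in the latter from 9.49, 9.44 and 9.36 FPKM to 5.31, 5.36 and 5.05. No 12 h library of either gene reached the level of 1 h. NSDHL was at 30.3, 26.9 and 25.8 FPKM after 1 h with the vehicle and fell by 0.42, and with FT895 by 0.33. ACAT2 went from 64.3, 52.8 and 55.8 FPKM to 42, 43.6 and 46.4 with the vehicle, a fall of 0.38, and fell by 0.28 with FT895. LSS fell by 0.36 and 0.38, with FT895 from 17.8, 17.2 and 17.8 FPKM to 13.6, 13.7 and 12.8. ABCA1, lower than mock at 1 h, rose by 0.54 and 0.36.

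Without TGFb 1 h replicate 1 the vehicle set had 11 members up and 7 down. The rises were then 0.90 for STARD4, 0.71 for ACLY, 0.69 for NPC2, 0.61 for SCD, 0.39 for ABCA1, 0.33 for INSIG1 and 0.22 for SQLE. The log2 changes of the genes that fell were -0.72 for PMVK, -0.59 for LPIN1, -0.38 for LSS, -0.35 for NSDHL and -0.30 for ACAT2. All of these were called with and without it. FDPS (0.11, limma adjusted p 0.0433), MSMO1 (0.16, 0.0315), INSIG2 (0.26, 0.0384) and NPC1 (-0.19, 0.00797) were called without it and not with it.

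Some of the smaller rises with FT895 passed the threshold narrowly. The call of ABCA1 was lost without replicate 1 of TGFb with FT895 at 1 h (0.35, adjusted p 0.0502, against 0.36 with all libraries) and without replicate 2 at 12 h (0.29, 0.0865). With no filter on low values it was lost at the same change (0.36, limma adjusted p 0.0635). For INSIG1 (0.20 with all libraries) it was lost without replicate 2 at 1 h (0.16, adjusted p 0.0607) or replicate 1 at 12 h (0.15, 0.0685). SQLE (0.145 with all libraries) lost it without replicate 1 (0.14, adjusted p 0.0885), 2 (0.15, 0.0698) or 3 (0.15, 0.0528) at 1 h and without replicate 1 (0.12, 0.112) or 2 (0.15, 0.0586) at 12 h.

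The difference between the sets, which is also how far the FT895 effect moved between the time points, was called by limma for 0 of 32 members, where 0.168% of all genes were called (0.144% higher, 0.0241% lower). INSIG2, LPIN1 and TM7SF2, 3 members, had an unadjusted p under 0.05 for it, and with library weights INSIG2 was called (0.56, adjusted p 0.0169). MVK and FASN (higher at 12 h) and FDFT1 and SCAP (lower) were called with the vehicle and not with FT895. FASN lost its call without TGFb 1 h replicate 1 (0.16, adjusted p 0.0535), TGFb 12 h replicate 2 (0.34, 0.0953) or replicate 3 (0.37, 0.0808), against 0.38 with all libraries. The call of MVK (0.37) was lost without TGFb 1 h replicate 3 (0.29, adjusted p 0.073), TGFb 12 h replicate 2 (0.35, 0.0545) or replicate 3 (0.36, 0.0511). That of SCAP (-0.26) was lost without TGFb 1 h replicate 2 (-0.21, adjusted p 0.0557) or 3 (-0.23, 0.0506) or TGFb 12 h replicate 1 (-0.23, 0.0532). With FT895 SCAP was called lower with library weights (-0.16, adjusted p 0.0384) and without TGFb 1 h replicate 1 (-0.18, 0.0313). It was also called there without replicate 2 of TGFb with FT895 at 1 h. FDFT1 (-0.17, adjusted p 0.0389) lost its call at a smaller change without TGFb 1 h replicate 1 (-0.11, adjusted p 0.114) or TGFb 12 h replicate 1 (-0.13, 0.148), and with median-of-ratios scaling (-0.12, 0.204), quantile normalization (-0.07, 0.267) or library weights (-0.06, 0.233). It lost it with about the same change without TGFb 12 h replicate 3 (-0.18, 0.0715), and with the same change without mock replicate 1 (0.05), replicate 1 of TGFb with FT895 at 1 h (0.0513), or replicate 1 or 2 of it at 12 h (0.0501 each). With no filter on low values MVK (adjusted p 0.0558), FASN (0.104) and FDFT1 (0.0606) lost their calls at the same change. INSIG2 and HSD17B7 (higher) and TM7SF2 and EBP (lower) were called with FT895 and not with the vehicle. With the vehicle INSIG2 was called without TGFb 1 h replicate 1 and with library weights (0.17, adjusted p 0.0411), HSD17B7 with median-of-ratios scaling, with quantile normalization and without replicate 1 of TGFb with FT895 at 12 h, and EBP without TGFb 1 h replicate 2. With FT895 HSD17B7 (0.36) lost its call without replicate 2 at 1 h (0.32, adjusted p 0.0563) or replicates 2 or 3 at 12 h (0.27, 0.0748, and 0.32, 0.0569). EBP (-0.29) lost it without replicates 2 or 3 at 1 h (-0.30, adjusted p 0.0503, and -0.23, 0.108) or at 12 h (-0.27, 0.0722, and -0.28, 0.068). In the FT895 set EBP also lost it with median-of-ratios scaling (-0.19, adjusted p 0.153) and with no filter on low values (-0.29, 0.0729). INSIG2, the INSIG protein that does not depend on SREBP, rose there by 0.74, from 6.82, 6.51 and 6.44 FPKM to 11.3, 12.2 and 11.4 (limma adjusted p 8.09e-05). TM7SF2 fell by 0.63, from 1.52, 2.10 and 2.12 FPKM to 1.2, 0.824 and 0.644 (adjusted p 0.00425).

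Adding FT895 to TGFb changed no member by the test. At 1 h 0 of 32 members were called (4 had an unadjusted p under 0.05, 2 higher and 2 lower), where 0.0722% of all genes were called. At 12 h 0 of 32 were called (5 with an unadjusted p under 0.05, 1 higher and 4 lower), where 0.016% of all genes were called, all higher. At 1 h the groups lay apart in 2 members that were higher, ABCA1 and LPIN1, and in 4 that were lower, ACAT2, IDI1, FDFT1 and INSIG2, against 12.8% and 3.51% of all genes. Without TGFb 1 h replicate 1 the log2 differences of these members at 1 h were smaller. They were 0.14 for ABCA1 (0.29 with it), 0.08 for LPIN1 (0.16), -0.08 for ACAT2 (-0.16), -0.105 for IDI1 (-0.124), -0.10 for FDFT1 (-0.16) and -0.09 for INSIG2 (-0.21). Other members differed more without that replicate, among them NPC2 (0.21, against 0.07 with it), DHCR7 (-0.18, against -0.06), SCD (-0.17, against -0.06) and MSMO1 (0.12, against -0.002). Without it 0 members were called. A fit with library weights gives replicates 1, 2 and 3 of TGFb 1 h weights of 0.106, 0.64 and 5.11, so that group rests mostly on replicate 3. This fit called 4 members at 1 h, where it called 15.8% of all genes, and 1 at 12 h, where it called 0.473%. The 4 members of 32 are thus no larger a share than that of all genes. At 1 h STARD4 (0.26, adjusted p 0.011) and ABCA1 (0.22, 0.024) were higher with FT895 and SCD (-0.14, 0.0164) and DHCR7 (-0.15, 0.0361) lower.

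At 12 h most members stood a little lower with FT895. Of 32 log2 changes 24 were below 0, with a median of -0.06, while over all genes 5750 of 12467 were below 0 and the median was 0.01. At 1 h 18 of 32 were below 0 (median -0.015), against 4597 of 12467 genes (median 0.044). The members were measured in the same libraries, so such counts are not of independent values. Under the scaling alternatives the median of the members at 12 h was -0.08 (median-of-ratios) and -0.07 (quantile). With FT895 8 members lay below the vehicle group without overlap, against 6.08% of all genes, and 3 lay above, against 7.83%. Those below were IDI1, FDPS, CYP51A1, EBP, INSIG1, SCD, ACLY and LPIN1, and those above INSIG2, SREBF1 and SCAP.

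IDI1, the isomerase of isoprenoid units (ENSG00000067064, chromosome 10, 1039152 to 1049170, minus strand), was at 49.6, 46.0 and 45.5 FPKM with the vehicle and at 37.7, 33.8 and 39.9 with FT895. The groups did not overlap, with a log2 difference of -0.33 (95% interval -0.51 to -0.16, limma adjusted p 0.23). INSIG1 was at 52.7, 51.3 and 51.8 FPKM with the vehicle and at 48.2, 42.8 and 44.8 with FT895 (-0.20, interval -0.32 to -0.08, adjusted p 0.413). FDPS was at 159, 164 and 166 FPKM and, with FT895, at 143, 143 and 149 (-0.17, interval -0.30 to -0.04, adjusted p 0.65). SCD was at 274, 291 and 284 FPKM and, with FT895, at 250, 261 and 249 (-0.16, interval -0.32 to 0.002, adjusted p 0.813). These 4 were picked from the 8 members below the vehicle group, and none passed the threshold.

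INSIG2 (ENSG00000125629, chromosome 2, 118088452 to 118110997, plus strand) differed in the opposite direction to INSIG1. It was at 10.4, 8.20 and 7.60 FPKM with the vehicle at 12 h and at 11.3, 12.2 and 11.4 with FT895 (log2 difference 0.39, 95% interval 0.16 to 0.62, limma adjusted p 0.364), and library weights called it (0.46, adjusted p 0.0113). At 1 h it was at 9.40, 6.92 and 7.18 FPKM with the vehicle and at 6.82, 6.51 and 6.44 with FT895 (-0.21, adjusted p 0.393). TM7SF2 was at 2.09, 1.2 and 1.09 FPKM at 12 h with the vehicle and at 1.2, 0.824 and 0.644 with FT895, where the groups met at 1.2 (-0.37, adjusted p 0.73). For SREBF2, the factor that drives most of the list, the interval of the FT895 difference at 12 h ran from -0.22 to 0.11, and for SQLE from -0.15 to 0.06.

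**Figure D5:**
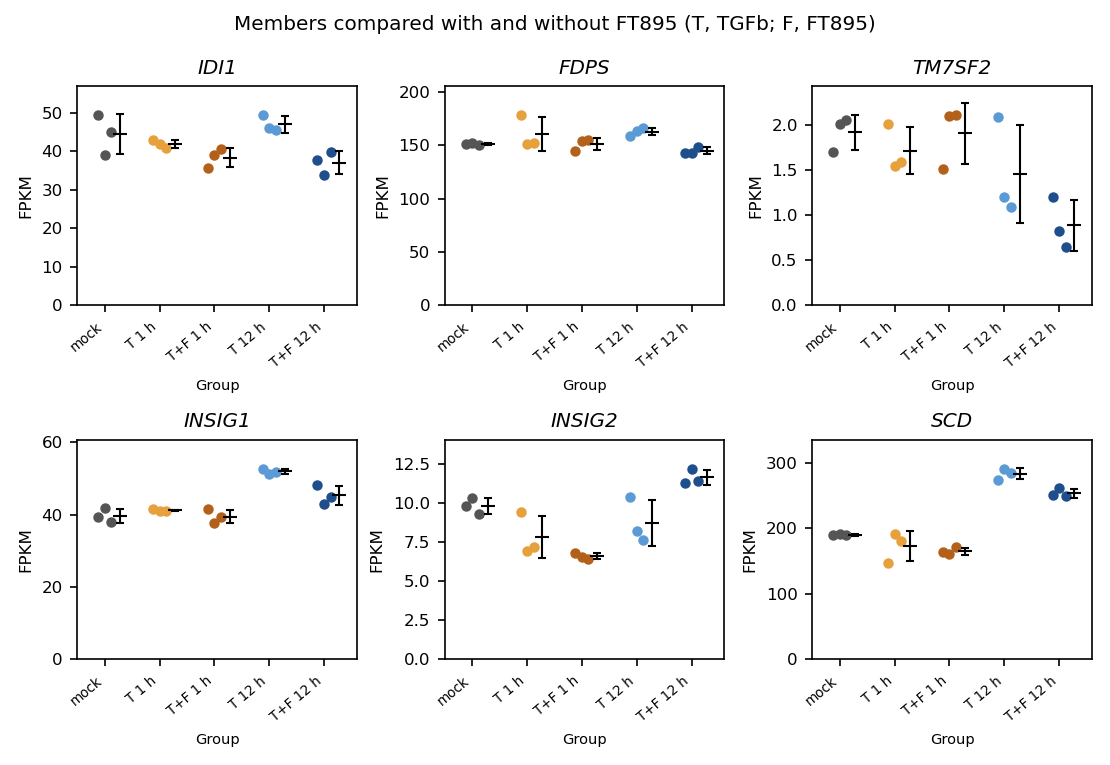
Points are FPKM of single libraries in the 5 groups, with mean and SD (n = 3) as bars beside them; each axis starts at 0. In the 12 h groups IDI1, FDPS, INSIG1 and SCD are lower with FT895 than with the vehicle and INSIG2 is higher, none of them called.

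Other genes of lipid synthesis, which are no members, also split at 12 h against mock. Of 18 tested genes of fatty acid synthesis, elongation, desaturation and activation 5 rose and 3 fell: malic enzyme ME1, a source of NADPH, by 0.48 (16.9 ± 1.16 to 23.9 ± 0.41 FPKM) and the acyl-CoA synthetase ACSL1 by 0.41 were the largest rises, and the mitochondrial MCAT (-0.53) and the elongation reductase HSD17B12 (-0.43) the deepest falls. Of 11 genes of SREBP processing and sterol regulation 0 rose and 3 fell, TMEM97, a sterol-responsive partner of NPC1, by 0.73 (17.5 ± 1.54 to 10.1 ± 0.237 FPKM), ERLIN2, which takes part in sterol-driven protein degradation, by 0.47 and the ubiquitin ligase RNF139 by 0.26. Of 11 tested other sterol and isoprenoid genes 3 rose and 4 fell. SOAT1, which esterifies cholesterol for storage, fell by 0.58, from 20.9 ± 0.408 to 13.7 ± 0.198 FPKM (limma adjusted p 9.47e-07). The oxysterol-binding relative OSBPL5 rose by 0.50 from a low level of 0.84 ± 0.131 FPKM, and PDSS1, of the coenzyme Q tail, and the sterol hydroxylase CYP27A1 fell by 0.46 and 0.40. The medians of the 3 lists were 0.03, -0.13 and 0.00, against -0.08 over all genes. With FT895 at 12 h 0 of these 40 genes were called (1 had an unadjusted p under 0.05).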

How the data were processed

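The authors deposited FPKM values, 1 column per library, in a table of 24880 loci. The submitters' processing notes name HISAT2, StringTie and the build GRCh38; versions, annotation and strandedness were not given in the sources used. Read depth is unknown, since low values showed no unit of whole reads (693 to 807 loci per replicate pair), so no counting interval is given. Close paralogs and antisense reads cannot be checked from FPKM. From these values log2(FPKM + 1) was computed, genes with at least 1 FPKM in at least 3 of 15 libraries were kept (12467), and a mean per group was fitted in limma 3.58.1 under R 4.3.3 (eBayes with trend, 10 residual degrees of freedom). Tests were two-sided, with Benjamini-Hochberg adjustment within each of 7 comparisons and a threshold of 0.05; fold changes of low genes are understated. The fit was tested on simulated data. Several comparisons share groups (mock, or TGFb at 1 h or 12 h). The members and lists were chosen with earlier results of these data known. All 32 members are named, and values by library are given for up to 4 called members of largest rise and of largest fall per comparison, for members added after their values were seen (among them IDI1, FDPS and INSIG2 with FT895), while up to 4 called genes of each other list are named with group means or log2 changes. Alternatives were another pseudocount, no filter, other scalings, library weights, a replicate block and leaving out each library. Coordinates are from GENCODE v29, and exon length is the union of its exons.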

Additional observations from a re-analysis of the deposited data

Results flagged for a closer look

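INSIG2 and LPIN1 were picked out because the FT895 difference had opposite signs at 1 h and at 12 h with no overlap between libraries at either time. This holds for 2 of 32 members and for 0.802% of all 12467 genes tested. For INSIG2 the difference between the FT895 effects, 12 h minus 1 h, was 0.60 on the log2 scale (limma adjusted p 0.343), and for LPIN1 it was -0.23 (adjusted p 0.627), so the difference itself was not called for either. The first replicate of TGFb 1 h, whose values deviate with transcript length, is the highest INSIG2 and the lowest LPIN1 value of its group. Without it the difference was 0.47 for INSIG2 (adjusted p 0.239) and -0.15 for LPIN1 (adjusted p 0.545), with the same signs at both times.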

How the results depend on the processing

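Of 51 changes called in members, 0 reversed under any alternative: of 1071 values 1015 kept direction and call and 56 kept direction and lost the call. Library weights moved the number of members called from 5 to 11 for TGFb 1 h against mock (all genes 8.98% to 32%), from 0 to 4 for FT895 added at 1 h (0.0722% to 15.8%), from 0 to 1 for FT895 added at 12 h (0.016% to 0.473%) and from 0 to 1 for the FT895 effect at 12 h minus 1 h (0.168% to 0.473%); the cause was not tested. In the weighted fit TGFb 1 h rests mostly on replicate 3 (weight 5.11, against 0.106 and 0.64 for replicates 1 and 2). Leaving out a library gave 2 to 6 members called for TGFb 1 h against mock (2 without mock replicate 1 or 3), 13 to 17 for TGFb 12 h against mock, 13 to 18 for TGFb 12 h against 1 h, 12 to 18 for the same step with FT895, and 0 in the 3 comparisons of FT895 effects. Same-numbered libraries of different groups showed little shared deviation (correlations from -0.137 to 0.113 over 30 pairs, 2 over 0.1). This cannot exclude a pairing by number that is weak beside the spread between libraries. With a replicate block the counts were 5, 14, 15 and 16 in the 4 comparisons of TGFb and time, and 0 in the other 3; FDFT1 lost its call for TGFb 12 h against 1 h. Without depth, precision rests on 3 libraries per group.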
